A study of Rattus norvegicus with 9 samples.

Results

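Ion channels are membrane proteins that let potassium, calcium, sodium or chloride cross when they open. The channel genes described here are the 171 genes on the array whose symbols begin with Kcn (potassium channels), Cacn (calcium channels), Scn and a digit (sodium channels), Hcn (pacemaker channels), Clcn, Clca or Cftr (chloride channels), Trpc, Trpm or Trpv and a digit (TRP channels) or P2rx (channels opened by ATP), out of 35172 gene names on the array. They were chosen by symbol alone, so auxiliary subunits are among them, and so are a few proteins that form no pore, such as Trpc4ap, a protein that binds a TRP channel. The RNA came from Sertoli cells, the nurse cells of the seminiferous tubule, taken from rats of 5, 12 and 60 days of age, with 3 arrays for each age. All cultures were kept for 4 days in a growth factor medium and then given pulses of 50 ng/ml ovine FSH and 1e-07 M testosterone for 11 h, so the ages are compared under hormone and no untreated culture was analysed here. The labels name no strain and do not say whether the 3 arrays of an age come from separate animals or cultures, so the p-values speak only of the spread among these samples, which may be technical.

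A Sertoli cell surrounds the developing germ cells, seals the tubule with tight junctions and secretes the fluid that fills it. Potassium channels set the resting potential of such a cell, calcium channels turn a change of potential into a calcium signal, and chloride channels take part in fluid secretion and in the acidification of endosomes. FSH is known to change the membrane potential and the calcium uptake of Sertoli cells in culture. Peritubular myoid cells, which wrap the tubule and are the usual companions of Sertoli cells in culture, are smooth muscle-like and use L-type calcium channels, calcium-activated potassium channels and ATP-sensitive potassium channels.

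The array reads each gene with probes of 60 bases, and the probe sequences below, as deposited with the scans of replicate 1, show which stretch of each transcript the main results rest on. Positions are those of the rn4 build in the scan files of replicate 3, and no gene models of rn4 were at hand, so whether a probe is in a coding exon or in a UTR is not given. For Cacna1c, the pore of an L-type calcium channel, the probe that gave the signal lies at chr4:154895974-154896033 on the minus strand, and a second probe at chr4:154936537-154936596, also on the minus strand, was above background on none of the 9 arrays. For Kcnmb1, the beta subunit of the smooth muscle calcium-activated potassium channel, both probes gave a signal, at chr10:18912298-18912357 and chr10:18911997-18912056 on the plus strand. For Kcng2, a potassium channel subunit that works only together with other pores, 3 probes at chr18:77190293-77190352, chr18:77190610-77190669 and chr18:77190650-77190709 on the minus strand gave a signal, and capitals mark the 20 bases shared by the last 2 of these. Another Kcng2 probe, at chr18:77218684-77218743 on the minus strand and not printed, was above background on 1 array. The probe of Kcnj5, an inward rectifier, lies at chr8:32080815-32080874 on the minus strand, that of Kcne1, a small potassium channel subunit, at chr11:32344803-32344862 on the minus strand, and that of Trpv2, a calcium-permeable TRP channel, spans chr10:48781799-48783251 on the plus strand.
Cacna1c, probe used: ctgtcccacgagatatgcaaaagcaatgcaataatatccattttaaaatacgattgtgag
Cacna1c, second probe: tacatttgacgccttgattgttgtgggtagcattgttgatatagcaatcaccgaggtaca
Kcnmb1, probe used: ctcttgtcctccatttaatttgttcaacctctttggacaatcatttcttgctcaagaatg
Kcnmb1, second probe: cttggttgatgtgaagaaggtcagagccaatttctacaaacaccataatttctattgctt
Kcng2, probe used: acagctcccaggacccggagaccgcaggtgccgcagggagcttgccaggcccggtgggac
Kcng2, second probe: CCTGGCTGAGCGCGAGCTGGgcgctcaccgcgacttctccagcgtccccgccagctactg
Kcng2, last probe: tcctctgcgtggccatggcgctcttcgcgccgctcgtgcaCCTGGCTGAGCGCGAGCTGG
Kcnj5: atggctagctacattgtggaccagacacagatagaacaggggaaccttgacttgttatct
Kcne1: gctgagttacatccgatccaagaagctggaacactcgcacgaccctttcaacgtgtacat
Trpv2: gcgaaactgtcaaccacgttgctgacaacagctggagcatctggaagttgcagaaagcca

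For 2 channel genes the probe with the strongest signal is uncertain, and its sequence is given so that it can be looked up. The probe that stands for Kcnq5 carries that name only in the scan files of replicate 1, and the files of replicate 3 give it a transcript cluster name in place of a gene symbol. It lies at chr9:20339765-20339824 on the minus strand, and the other Kcnq5 probe lies at chr9:20292202-20292261. The probe that stands for Kcnj3 also has the symbol only in the files of replicate 1 and lies at chr8:70747437-70747496, while the other 3 Kcnj3 probes lie on chromosome 3, the second one printed here at chr3:37256278-37256337 on the plus strand. In all, 9 of the 223 channel probes carried a channel name in only 1 of the 2 annotations.
Kcnq5, probe used: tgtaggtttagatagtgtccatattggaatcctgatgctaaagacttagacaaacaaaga
Kcnq5, other probe: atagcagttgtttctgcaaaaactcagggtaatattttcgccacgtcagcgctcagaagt
Kcnj3, probe used: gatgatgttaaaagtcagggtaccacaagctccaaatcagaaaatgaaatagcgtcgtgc
Kcnj3, probe on chromosome 3: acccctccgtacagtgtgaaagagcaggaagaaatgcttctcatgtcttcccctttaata

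The arrays differed in brightness. The 75th percentile of the processed signal lay between 148 and 437 intensity units, and 49.1% to 63.0% of probes were well above background. Saturated probes numbered 134 to 141 on the arrays of replicate 2 and 29 to 50 on the others. A level is given throughout as the log2 signal minus the 75th percentile of its array, so that 0 is a probe at that percentile, and levels of different genes are not set against each other because probes differ in brightness. The arrays of replicate 1 were read with another scanner and software version than those of replicates 2 and 3, per the file headers, and all arrays of an age held the same place on their slides, so slide position and age cannot be told apart. Of 18 Sertoli cell markers, 12 were higher and none lower at 60 than at 5 days (limma, adjusted p under 0.05), and Sox9, Inha and Kitlg were above background on all 9 arrays.

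Of the 171 channel genes, 80 passed the filter, which asked that 2 or more of the 3 arrays of some age be well above background. The other 91 were not tested, and 73 of these were above background on no array. Of the 80 tested genes, 33 were above background on all 9 arrays, and 21 passed through 1 age only (4 through 5 days, 4 through 12 days and 13 through 60 days). For these 21 the filter favours a difference between ages without fixing one. Counts over the 80 genes describe only genes that passed. No channel probe was saturated.

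More channel genes were called between the youngest and the oldest cells than between neighbouring ages, and 7 of the 12 tested calcium channel genes were lower at 60 than at 5 days, with none higher. At 12 against 5 days, 6 of the 80 tested channel genes were higher and 9 lower, together 18.8%, against 12.4% of all 22456 genes tested (6.06% higher and 6.35% lower). At 60 against 12 days, 8 were higher and 19 lower, together 33.8%, against 25.3% of all genes (12.2% higher and 13% lower). At 60 against 5 days, 16 were higher and 24 lower, together 50% of the tested channel genes, against 35.3% of all genes (17.2% higher and 18.1% lower). Over the 3 ages, 42 channel genes (52.5%) passed the moderated F-test, against 36.6% of all genes. The test was limma with Benjamini-Hochberg adjustment over all genes at an adjusted p under 0.05, and rose, fell, higher and lower below refer to calls by it. Among the 33 channel genes above background on all 9 arrays, where the filter cannot favour a change, 18.2% were called at 12 against 5 days, 27.3% at 60 against 12 days and 42.4% at 60 against 5 days, against 10.4%, 22.1% and 30.6% of the 14621 such genes.

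The channel genes did not shift one way as a set. Their median log2 difference was -0.01 at 12 against 5 days, -0.12 at 60 against 12 days and -0.05 at 60 against 5 days, against 0.04, -0.16 and -0.09 over all genes. With genes that were not above background in the lower age set to their bounds, these medians were 0.00, -0.12 and 0.00. The median size of the difference at 60 against 5 days, whatever its sign, was 1.63 for channel genes and 0.85 for all genes. The 2 sets differ in signal, since 33 of the 80 channel genes were above background on all 9 arrays, against 14621 of all 22456 genes. Log differences can be larger where a signal falls below background, and sizes were not compared among genes above background on all arrays.

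Each call was refitted 12 times, leaving out each of the 9 arrays and each of the 3 replicate numbers. Of the calls, 10 of 15 at 12 against 5 days, 23 of 27 at 60 against 12 days and 38 of 40 at 60 against 5 days stood without any single array. Over all 12 refits, which add the replicate numbers, 7 of 15, 11 of 27 and 32 of 40 stood. The count of genes lower at 12 than at 5 days was 3, 4 and 5 without replicate 1, 2 or 3, in place of 9, and the count lower at 60 than at 12 days was 8 without replicate 2, in place of 19. With the replicate number as a block, 12 in place of 6 genes were higher at 12 than at 5 days, and 13 in place of 8 were higher at 60 than at 12 days. The block also added falls of Kcnh2, Scn2a, Kcnd1 and Cacna1s at 12 against 5 days and of Kcnd3 at 60 against 12 days. At 60 against 5 days it added a rise of Kcnj3 and falls of Kcnd3, Kcna3 and Clcn4. Kcnd1, Kcnd3 and Clcn4 are named after their values were seen. Scaling to the 7 spike-in controls moved the median log2 difference of all genes by -1.34 at 12 against 5 days, 0.9 at 60 against 12 days and -0.44 at 60 against 5 days. It turned no called difference round. It left 0 of the 6 rises and called 24 falls at 12 against 5 days, and left 5 of the 19 falls at 60 against 12 days and 9 of the 16 rises at 60 against 5 days, so differences are relative to the bulk of the genes on each array. The 14 calls at 60 against 12 days lost in this way include Kcnh1, Kcna3, Kcnd2, Kcnk1, Kcnk2, Cacna1d, Cacna1g, Cacna1s, Cacnb3, Scn2a, Clcn5 and Trpv4, and the 7 at 60 against 5 days are Kcng3, Kcns3, Kcnj9, Kcnk13, Scn10a, Trpc4 and P2rx2.

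Background correction by normexp, run on the 6 arrays of replicates 1 and 3, kept the sign of every call but made most differences smaller. It kept 3 of 15 calls at 12 against 5 days (Kcne1, Clcn3 and Kcnmb4), 5 of 27 at 60 against 12 days (Kcng2, Kcnj5, Kcnmb1, Scn3b and Trpv2) and 16 of 40 at 60 against 5 days. The difference shrank by over 1.5 times for 14, 26 and 37 of these calls in the 3 comparisons, in order of age. At 60 against 5 days, Kcng2, Kcnh1, Kcnj8, Kcnk13, Kcne1, Kcnmb1, Kcnmb4, Cacna1c, Cacna2d1, Cacnb3, Scn2a, Scn3b, Clcn2, Clcn3 and Trpv2 were among the 16 that stood. Calls over all genes dropped as well. Normexp gave 124 higher and 287 lower at 12 against 5 days, in place of 1361 and 1427. At 60 against 12 days it gave 930 and 606, in place of 2749 and 2926. At 60 against 5 days it gave 1583 and 1532, in place of 3865 and 4072.

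**Figure D1:**
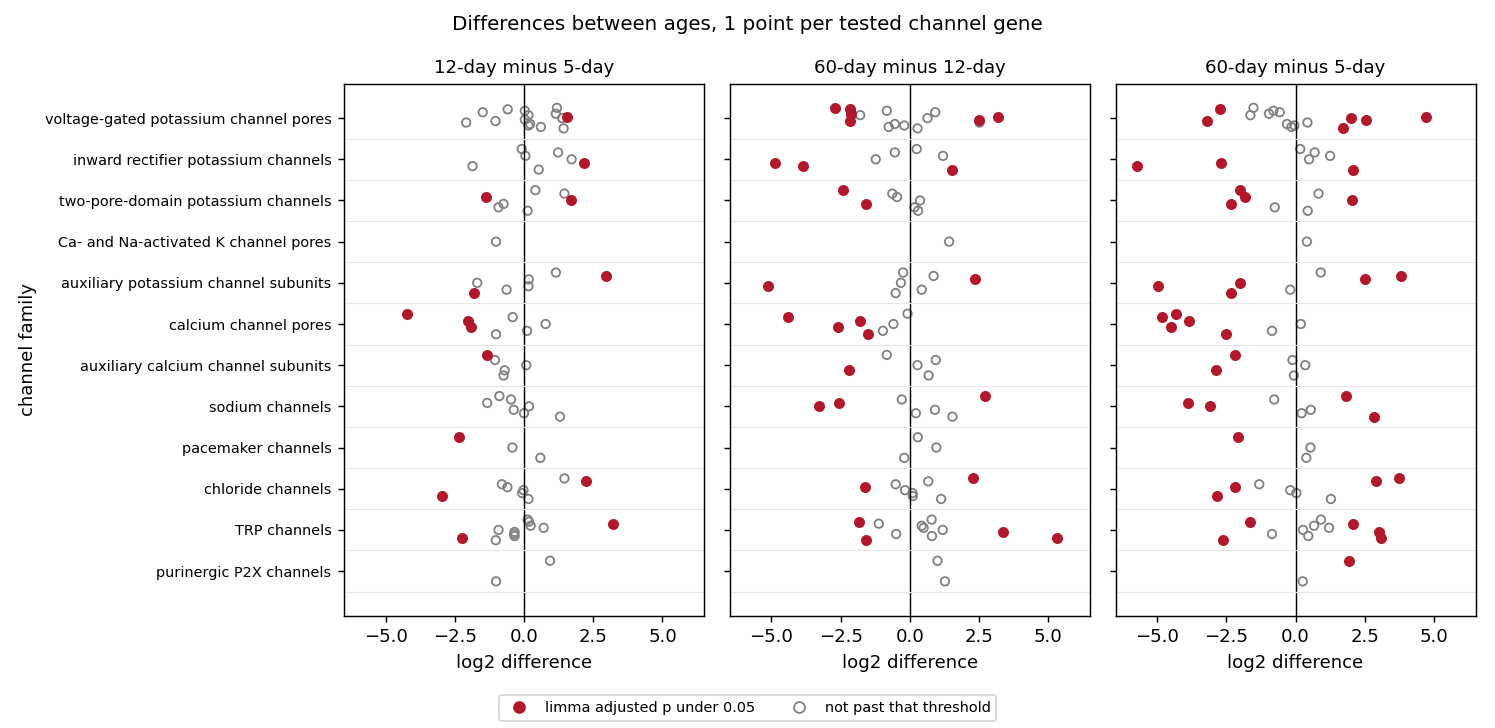
Log2 difference of each of the 80 tested channel genes (x axis) by channel family (y axis) for 12-day minus 5-day, 60-day minus 12-day and 60-day minus 5-day cells; filled points have a limma adjusted p under 0.05. In the right panel 5 of the 7 calcium channel pores are filled and lie left of 0, and no filled point of that family lies right of 0.

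Voltage-gated calcium channel pores, the Cacna1 proteins, admit calcium when the membrane depolarises. Of 10 such genes on the array 7 were tested, and at 60 against 5 days 5 of these fell and none rose. Of the 7, 3 fell and none rose at 12 against 5 days, and 4 fell and none rose at 60 against 12 days. In RNA from a whole culture, fewer cells of a type and less RNA per cell cannot be told apart. The 3 pores not tested, Cacna1a, Cacna1f and Cacna1i, were above background on no array; Cacna1a and Cacna1f were named after their values were seen.

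Cacna1c had levels of -0.45, -0.68 and -0.84 at 5 days, -1.43, -1.0 and -0.79 at 12 days and -3.86, -6.47 and -6.12 at 60 days. The 6 arrays of the younger ages lay close together, and all 3 arrays of 60 days lay below them, replicate 1 the least far. The log2 difference was -4.41 ± 0.59 (SE) at 60 against 12 days (limma, adjusted p = 0.000303) and -4.83 ± 0.59 at 60 against 5 days (adjusted p = 8.25e-05), and at 12 against 5 days it was -0.41 with an adjusted p of 0.768. At 60 days Cacna1c was above background on 1 array, so the sizes of its falls to that age rest in part on signals below background. Under normexp its difference was -0.64 at 60 against 12 days (limma, adjusted p = 0.0712) and -0.80 at 60 against 5 days (adjusted p = 0.0275). Cacna1d, the pore of another L-type channel, read -0.46, -1.0 and -1.86 at 5 days, -2.96, -2.78 and -3.65 at 12 days and -4.36, -5.48 and -4.99 at 60 days. Each age lay below the one before it with no overlap. Cacna1d was above background on 2 arrays at 12 days and on 1 at 60 days. Its log2 difference was -2.03 ± 0.45 at 12 against 5 days (limma, adjusted p = 0.0137), -1.81 ± 0.45 at 60 against 12 days (adjusted p = 0.013) and -3.84 ± 0.45 at 60 against 5 days (adjusted p = 6.44e-05). The first of these calls was lost without array 1 (replicate 1) of 5 days or array 3 of 12 days (0.104 at most over the refits), and the second without array 2 of 60 days (up to 0.196). A second Cacna1d probe gave -2.2 at 60 against 5 days (limma over all probes, adjusted p = 0.00734) and was called in neither other comparison (adjusted p = 0.188 and 0.211). The remaining Cacna1d probe was above background on 3 arrays and did not pass the filter. It averaged -4.40 at 5 days, -4.48 at 12 days and -4.95 at 60 days.

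Cacna1b, the pore of the N-type channel of nerve endings, read 0.73, 0.17 and -1.27 at 5 days, -3.81, -3.71 and -5.53 at 12 days and -3.73, -4.03 and -5.53 at 60 days. The 2 older ages overlapped and lay below all 5-day arrays, and at each age the array of replicate 3 was the lowest. The log2 difference was -4.23 ± 0.68 at 12 against 5 days (limma, adjusted p = 0.00212) and -4.31 ± 0.68 at 60 against 5 days (adjusted p = 0.000487). Under normexp these were -0.95 (adjusted p = 0.233) and -0.97 (adjusted p = 0.11). A second Cacna1b probe showed no fall: it was above background on 1 array and averaged -5.94 at 5 days, -5.86 at 12 days and -4.25 at 60 days. Cacna1g, the pore of a T-type channel that opens at low voltage, read -2.34, -1.99 and -1.13 at 5 days, -3.18, -4.66 and -3.39 at 12 days and -6.02, -6.34 and -6.64 at 60 days, where it was above background on no array. It was at least 6.9-fold lower at 60 than at 5 days (limma, adjusted p = 2.61e-05) and at least 1.82-fold lower at 60 than at 12 days (adjusted p = 0.00201). At 12 against 5 days its log2 difference was -1.92 ± 0.47 (adjusted p = 0.0205), a call lost without array 2 or 3 of 5 days or array 2 of 12 days (up to 0.197). Cacna1s, the pore of the skeletal muscle L-type channel, was at least 3.41-fold lower at 60 than at 5 days (limma, adjusted p = 0.000253) and at least 1.7-fold lower at 60 than at 12 days (adjusted p = 0.0103, or 0.0591 without replicate 1 and 0.113 without replicate 2). At 12 against 5 days its log2 difference was -1.01, with an adjusted p of 0.103, or 0.0354 with the replicate number as a block. A second Cacna1s probe was above background on no array. Cacna1h, another T-type pore, varied from -3.78 to 0.30 among the 5-day arrays and was not called in any comparison (adjusted p of 0.522 or more).

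**Figure D2:**
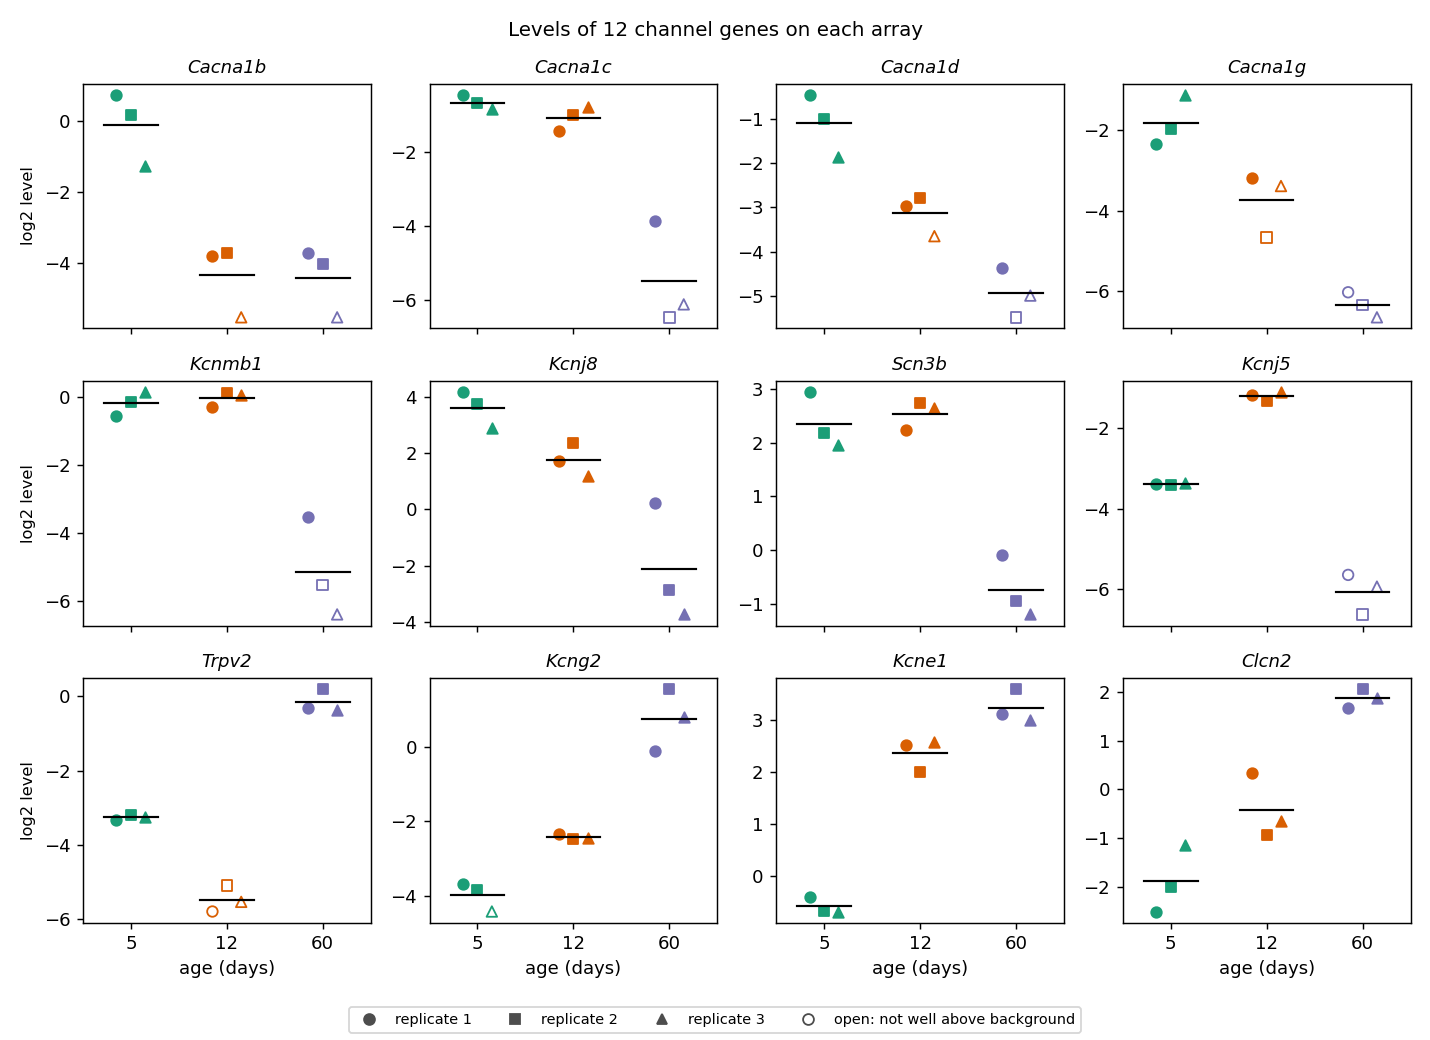
Level on each array (y axis, log2 signal minus the array's 75th percentile) by age in days (x axis) for 12 channel genes; marker shape is the replicate number, open points were not well above background and bars are means of 3 arrays. Cacna1c, Kcnmb1 and Scn3b lie level at 5 and 12 days and lower at 60 days, Kcnj5 is highest at 12 days, Trpv2 is lowest at 12 days, and Kcng2, Kcne1 and Clcn2 are highest at 60 days.

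Auxiliary calcium channel subunits carry the pores to the membrane and shape their opening. Of 15 genes 5 were tested, and at 60 against 5 days 2 fell and none rose. Cacna2d1, the alpha2delta subunit, read 5.77, 5.91 and 5.27 at 5 days, 4.15, 4.60 and 4.17 at 12 days and 3.86, 3.33 and 3.25 at 60 days. Every age lay below the younger one with no overlap. The log2 difference was -2.17 ± 0.33 at 60 against 5 days (limma, adjusted p = 0.000442) and -1.34 ± 0.33 at 12 against 5 days (adjusted p = 0.0239), a call at 12 days lost without array 1 or 2 of 5 days or array 1 or 3 of 12 days (up to 0.195). Cacnb3, a beta subunit, read 4.83, 4.39 and 4.14 at 5 days, 3.53, 3.73 and 4.00 at 12 days and 2.39, 1.43 and 0.90 at 60 days. The 60-day arrays were the lowest, with log2 differences of -2.18 ± 0.41 against 12 days (limma, adjusted p = 0.00277, or 0.0604 without replicate 2) and -2.88 ± 0.41 against 5 days (adjusted p = 0.000262). Cacnb2, the related beta subunit of heart muscle, stayed between 2.45 and 3.31 on all 9 arrays and was not called (adjusted p of 0.437 or more).

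Voltage-gated potassium channel pores repolarise the membrane. Of 39 genes 15 were tested, and at 60 against 5 days 4 rose and 2 fell. The rises were in silent Kv subunits, which form no channel of their own and modify other pores: Kcng2, Kcng3, Kcng4 and Kcns3. Of these, Kcng3 and Kcng4 passed the filter through 60 days only, so their rise follows in part from the filter. The silent subunits Kcnf1, Kcng1, Kcns1, Kcns2, Kcnv1 and Kcnv2, named after their values were seen, were not tested. Kcng2 read -3.68, -3.84 and -4.42 at 5 days, -2.35, -2.48 and -2.44 at 12 days and -0.10, 1.56 and 0.80 at 60 days. The ages stood apart on every array, with a log2 difference of 4.73 ± 0.43 at 60 against 5 days (limma, adjusted p = 1.06e-05) and 3.18 ± 0.43 at 60 against 12 days (adjusted p = 0.000319). Its rise of 1.56 ± 0.43 at 12 against 5 days (adjusted p = 0.0365) was lost without any of the 6 arrays of these ages or array 3 of 60 days (up to 0.256). Of the other probes printed above, the one at chr18:77190610-77190669 gave 4.26 and the one at chr18:77190650-77190709 gave 6.10 at 60 against 5 days (limma over all probes, adjusted p = 0.000365 and 2.79e-05), but at 12 against 5 days the first of these gave 0.83 (adjusted p = 0.51). The Kcng2 probe not printed did not pass the filter and averaged -5.66 at 5 days, -5.95 at 12 days and -5.15 at 60 days. Kcng4 read -2.97, -2.08 and -2.06 at 60 days and was above background on no younger array, which made it at least 3.12-fold higher at 60 than at 5 days (limma, adjusted p = 0.00265) and at least 3.14-fold higher than at 12 days (adjusted p = 0.00445).

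Kcns3 and Kcng3, named after their values were seen, were smaller rises. Kcns3 read -1.54, -1.83 and -1.52 at 5 days, -0.29, -0.13 and -0.16 at 12 days and -0.94, 0.18 and 1.02 at 60 days, with a log2 difference of 1.71 ± 0.45 at 60 against 5 days (limma, adjusted p = 0.0121, or up to 0.138 in the refits without replicate 2 or 3). Its 1.43 at 12 against 5 days had an adjusted p of 0.0643, or 0.0359 with the replicate number as a block. Kcng3 was at least 1.03-fold higher at 60 than at 5 days (limma, adjusted p = 0.00658, or up to 0.0753 in the refits without replicate 2 or 3).

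The Kv pores named here that fell form channels of their own. Of these, Kcna3 and Kcnd2 passed the filter through 12 days only, so their fall after that age follows in part from the filter. Kcnh1, a channel of the EAG family that is linked to proliferating cells, read 0.88, 0.52 and 0.28 at 5 days, -0.70, -0.12 and -0.57 at 12 days and -1.99, -2.79 and -3.09 at 60 days. All 3 ages were apart, and the log2 difference was -2.16 ± 0.37 at 60 against 12 days (limma, adjusted p = 0.00158, or 0.0583 without replicate 2) and -3.19 ± 0.37 at 60 against 5 days (adjusted p = 6.27e-05). Kcna3, a channel best known from lymphocytes, was at least 1.49-fold lower at 60 than at 12 days (limma, adjusted p = 0.00538, or up to 0.0616 without replicate 1 or 2). At 60 against 5 days its adjusted p was 0.0623, or 0.0242 with the replicate number as a block. A second Kcna3 probe was above background on no array. Kcnd2, of the rapidly inactivating A-type current, was at least 2.12-fold lower at 60 than at 12 days (limma, adjusted p = 0.0343), a call lost without array 1 or 2 of 12 days or array 2 or 3 of 60 days (up to 0.128) and under quantile normalization (0.0605). Kcnh2, a cardiac and neuronal repolarising channel named after its values were seen, read 0.61, -2.19 and -1.25 at 5 days, -1.9, -4.41 and -2.79 at 12 days and 0.26, -2.03 and 0.21 at 60 days. On each slide the 12-day array was the lowest, although the ages overlap across slides. Its log2 difference was -2.09 at 12 against 5 days and 2.52 at 60 against 12 days, with limma adjusted p of 0.165 and 0.0556, or 0.00376 and 0.000668 with the replicate number as a block. The uncertain Kcnq5 probe read 4.52 to 6.42 on the 9 arrays and was not called (adjusted p of 0.312 or more), and the other Kcnq5 probe averaged -4.57 at 5 days, -3.34 at 12 days and -4.53 at 60 days.

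Inward rectifiers hold the resting potential near that of potassium. Of 15 genes 7 were tested, and Kcnj8 and Kcnj5 fell while Kcnj9 rose at 60 against 5 days. Kcnj8, the pore of the ATP-sensitive channel of smooth muscle, read 4.18, 3.76 and 2.88 at 5 days, 1.71, 2.36 and 1.18 at 12 days and 0.22, -2.87 and -3.73 at 60 days. The 60-day arrays differed among themselves, replicate 1 being the highest, yet all 3 lay below every younger array. The log2 difference was -5.73 ± 0.85 at 60 against 5 days (limma, adjusted p = 0.000322) and -3.87 ± 0.85 at 60 against 12 days (adjusted p = 0.00638, or 0.109 without replicate 2), and at 12 against 5 days it was -1.86 with an adjusted p of 0.212.

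Kcnj5, which forms the acetylcholine-gated potassium channel of the heart together with Kcnj3, had its highest levels at 12 days. It read -3.38, -3.40 and -3.37 at 5 days, -1.19, -1.33 and -1.10 at 12 days and -5.64, -6.62 and -5.93 at 60 days, where it was above background on no array. The 12-day arrays were above all others and the 60-day arrays below all others. The log2 difference at 12 against 5 days was 2.18 ± 0.33 (limma, adjusted p = 0.0016), and the gene was at least 10.6-fold lower at 60 than at 12 days (adjusted p = 6.24e-06) and at least 2.33-fold lower at 60 than at 5 days (adjusted p = 9.27e-05). All 3 calls stood in the 12 refits. The rise at 12 against 5 days was lost under spike-in scaling (0.84, adjusted p = 0.379) and normexp (0.51, adjusted p = 0.108), and the fall at 60 against 5 days under normexp (-0.20, adjusted p = 0.299). The uncertain Kcnj3 probe averaged 1.14 at 5 days, 1.2 at 12 days and 2.40 at 60 days, with adjusted p of 0.115 at 60 against 12 days and 0.0816 at 60 against 5 days, or 0.0113 and 0.00649 with the replicate number as a block. The Kcnj3 probe on chromosome 3 that passed the filter averaged -4.01, -4.07 and -4.47, and the remaining 2 were above background on no array. Kcnj9, a G protein-gated rectifier, rose at 60 against 5 days (limma, adjusted p = 0.00185) and against 12 days (adjusted p = 0.0152, or up to 0.159 without replicate 1 or 2), with no fold because its bound is under 1. Kcnj11, the other ATP-sensitive pore, was above background on 1 array and was not tested.

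Two-pore-domain potassium channels carry the background leak of potassium. Of 10 genes 7 were tested, and at 60 against 5 days 1 rose and 3 fell. Kcnk13 read -0.54, -0.73 and -0.97 at 5 days, 0.84, 1.07 and 0.89 at 12 days and 1.69, 0.86 and 1.35 at 60 days. The 5-day arrays lay below the others, by a log2 difference of 1.68 ± 0.32 at 12 against 5 days (limma, adjusted p = 0.00633, or up to 0.111 without replicate 2 or 3) and 2.05 ± 0.32 at 60 against 5 days (adjusted p = 0.00052). Kcnk2, a leak channel opened by stretch and polyunsaturated lipids, read -1.54, -1.35 and -2.28 at 5 days, -2.41, -1.98 and -3.01 at 12 days and -3.77, -3.61 and -4.75 at 60 days. Its log2 difference was -2.32 ± 0.43 at 60 against 5 days (limma, adjusted p = 0.00157) and -1.58 ± 0.43 at 60 against 12 days (adjusted p = 0.021), the second being lost without array 1 or 2 of 12 days or array 3 of 60 days (up to 0.119). Kcnk1, a weakly inward rectifying leak channel, was at least 1.16-fold lower at 60 than at 5 days (limma, adjusted p = 0.00234, or 0.0706 without replicate 2) and at least 1.55-fold lower at 60 than at 12 days (adjusted p = 0.00115). Kcnk12 fell by 1.83 on the log2 scale at 60 against 5 days (limma, adjusted p = 0.00223) and by 1.37 at 12 against 5 days (adjusted p = 0.0303), a call lost without array 2 or 3 of either age (up to 0.239). Kcnk6 lay between 2.05 and 3.93 on all arrays with the brighter of its 2 probes and was not called (adjusted p of 0.167 or more). Its second probe, above background on all 9 arrays, was lower at 12 than at 5 days (-1.33, limma over all probes, adjusted p = 0.0392).

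The calcium-activated potassium channels were hardly measured as pores. Of 7 calcium- or sodium-activated pores only Kcnn4, named after its values were seen, was tested, and it was not called (adjusted p of 0.303 or more); Kcnma1, the large-conductance pore, was above background on no array. Their auxiliary subunits were measured. Kcnmb1, which tunes the large-conductance channel of smooth muscle, read -0.57, -0.17 and 0.14 at 5 days, -0.30, 0.12 and 0.05 at 12 days and -3.54, -5.53 and -6.40 at 60 days. The younger ages overlapped, and the 60-day arrays lay far below with replicate 1 the highest of them. The log2 difference was -5.11 ± 0.61 at 60 against 12 days (limma, adjusted p = 0.000142) and -4.96 ± 0.61 at 60 against 5 days (adjusted p = 8.41e-05). The second probe printed above gave -4.83 and -4.74 (limma over all probes, adjusted p = 0.000158 and 8.56e-05). At 60 days Kcnmb1 was above background on 1 array, so these sizes rest in part on signals below background. Under normexp its differences were -1.01 at 60 against 12 days (limma, adjusted p = 0.0355) and -1.08 at 60 against 5 days (adjusted p = 0.0182). Kcnmb4, the neuronal beta subunit, read 0.50, 0.63 and 0.59 at 5 days, -1.39, -0.76 and -1.58 at 12 days and -1.78, -1.78 and -1.72 at 60 days. It was lower at both older ages, by -1.82 ± 0.32 at 12 against 5 days (limma, adjusted p = 0.00344, or up to 0.0622 without replicate 1 or 3) and -2.33 ± 0.32 at 60 against 5 days (adjusted p = 0.000177).

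Among the small Kcne subunits, which sit beside a Kv pore and slow or hold its gating, the members moved apart. Kcne1 read -0.40, -0.67 and -0.68 at 5 days, 2.52, 2.00 and 2.58 at 12 days and 3.11, 3.59 and 2.99 at 60 days. The 3 ages were apart on every array, with a log2 difference of 2.95 ± 0.32 at 12 against 5 days (limma, adjusted p = 0.000246) and 3.81 ± 0.32 at 60 against 5 days (adjusted p = 7.15e-06), while the 0.86 at 60 against 12 days had an adjusted p of 0.0769. Under spike-in scaling the differences were 1.61 at 12 against 5 days (adjusted p = 0.129) and 1.77 at 60 against 12 days, and neither was called. Kcnq1, the pore that Kcne1 is best known to join, was above background on 1 array and was not tested. Kcne2 was above background only at 60 days, on all 3 arrays, at -3.62, -2.73 and -3.08. It was at least 1.82-fold higher at 60 than at 5 days (limma, adjusted p = 0.000658) and at least 1.83-fold higher than at 12 days (adjusted p = 0.00175). Kcne3, named after its values were seen, was at least 1.73-fold lower at 60 than at 5 days (limma, adjusted p = 0.016), a call lost without array 1 of 5 days or array 3 of 60 days (up to 0.106).

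**Figure D3:**
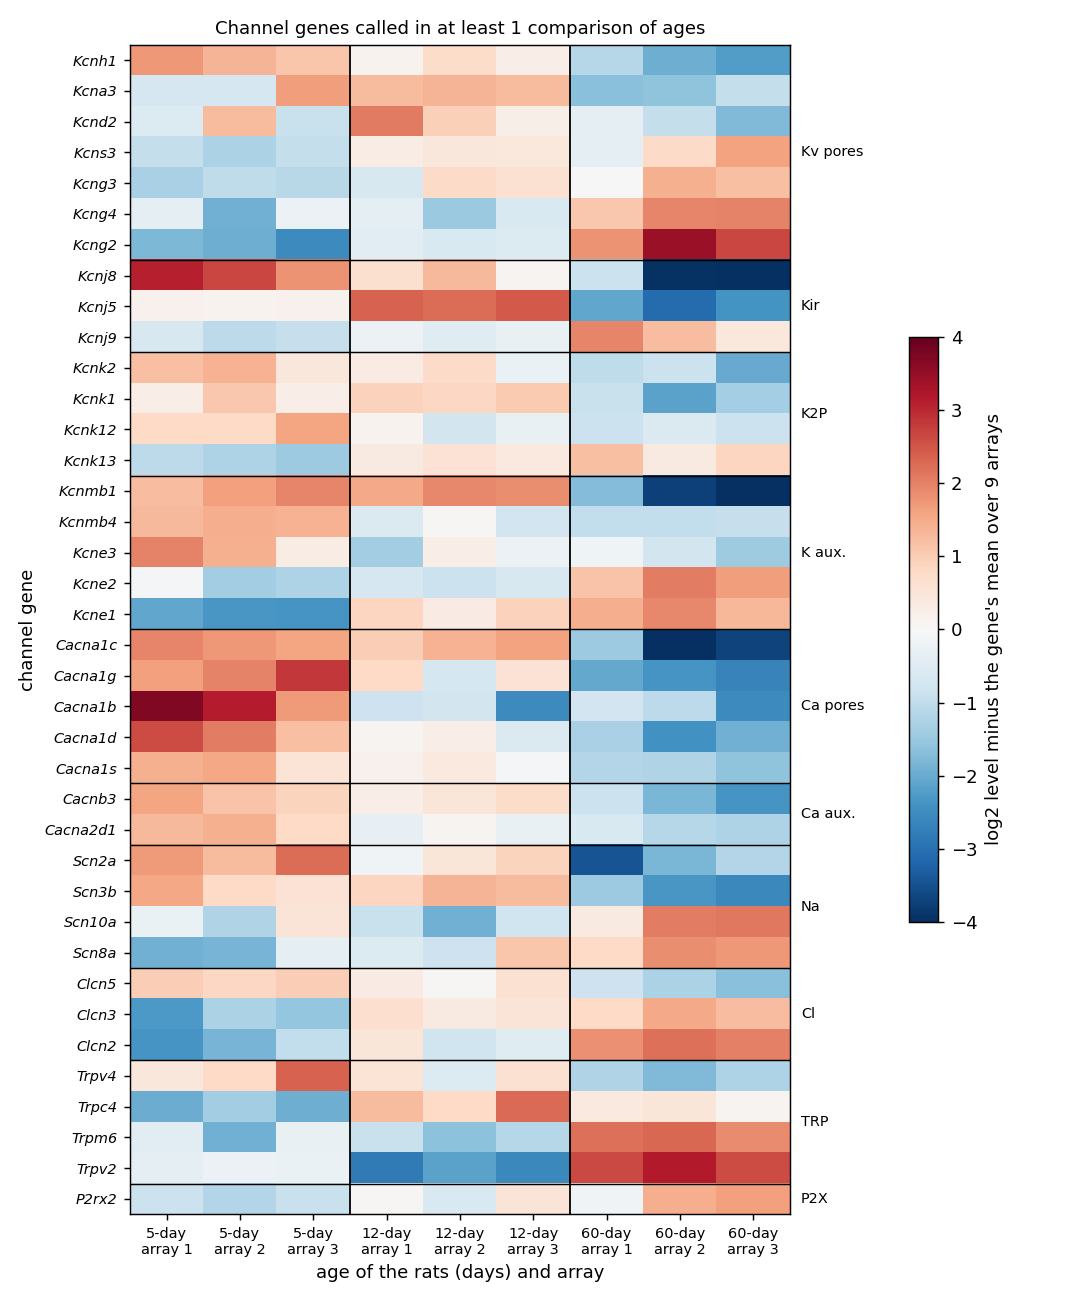
Each row is 1 of 38 of the 42 channel genes called in at least 1 comparison, grouped by family, and each column 1 array by age and replicate number; colour is the log2 level minus the mean of the gene over 9 arrays, with the scale ending at -4 and 4. The calcium channel rows are red at 5 days and blue at 60 days, whereas the potassium, sodium, chloride and TRP channel groups hold rows of both directions.

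Sodium channels start action potentials in nerve and muscle, and their beta subunits also act as adhesion molecules. Of 14 genes 7 were tested, and at 60 against 5 days 2 rose and 2 fell. Scn3b, a beta subunit, read 2.94, 2.17 and 1.95 at 5 days, 2.23, 2.74 and 2.64 at 12 days and -0.08, -0.95 and -1.19 at 60 days. The younger ages overlapped and the 60-day arrays lay below both, by -3.27 ± 0.40 against 12 days (limma, adjusted p = 0.000181) and -3.09 ± 0.40 against 5 days (adjusted p = 0.000133). Scn4b, the other beta subunit with a signal on all 9 arrays, lay between 2.64 and 4.56 and was not called (adjusted p of 0.103 or more). Its second probe, above background on 3 arrays, was higher at 60 than at 12 days (1.35, limma over all probes, adjusted p = 0.0351). Scn2a, a pore of brain neurons, read -1.29, -1.71 and -0.75 at 5 days, -3.12, -2.51 and -2.10 at 12 days and -6.44, -4.81 and -4.17 at 60 days. Each age lay below the younger one, with log2 differences of -2.56 ± 0.56 at 60 against 12 days (limma, adjusted p = 0.00616, or 0.0572 without replicate 2) and -3.89 ± 0.56 at 60 against 5 days (adjusted p = 0.000257), and at 12 against 5 days -1.33 with an adjusted p of 0.171, or 0.0493 with the replicate number as a block. A second Scn2a probe gave -2.35 at 60 against 5 days (limma over all probes, adjusted p = 0.00222) and -0.83 at 60 against 12 days (adjusted p = 0.23). The remaining Scn2a probe was above background on 3 arrays and did not pass the filter. It averaged -4.54 at 5 days, -4.44 at 12 days and -4.99 at 60 days.

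The sodium channel pores that rose did so at low levels. Scn8a, a pore of nerve axons, read -5.23, -5.16 and -3.67 at 5 days, -3.86, -4.12 and -2.19 at 12 days and -2.51, -1.46 and -1.56 at 60 days. Its log2 difference at 60 against 5 days was 2.84 ± 0.59 (limma, adjusted p = 0.00326, or 0.0541 without replicate 2). At 12 against 5 days the adjusted p was 0.214, or 0.0484 with the replicate number as a block, and at 60 against 12 days 0.0835, or 0.0139 with the block. A second Scn8a probe was above background on no array. Scn10a, a pore of sensory neurons, was above background only at 60 days and was at least 1.69-fold higher there than at 12 days (limma, adjusted p = 0.00587, or 0.0765 without replicate 2). At 60 against 5 days its groups overlapped, and the call (at least 1.68-fold higher, adjusted p = 0.0318) was lost without array 1 or 2 of 5 days or array 2 or 3 of 60 days (up to 0.278). Of the pacemaker channels 3 of 4 were tested.

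Chloride channels of the Clcn family sit in the plasma membrane (such as Clcn2) or exchange chloride for protons in endosomes and lysosomes (Clcn3 to Clcn7). Of 14 genes 8 were tested, and at 60 against 5 days 2 rose and 2 fell. Clcn2 read -2.50, -2.0 and -1.13 at 5 days, 0.33, -0.94 and -0.64 at 12 days and 1.68, 2.06 and 1.88 at 60 days. The ages did not overlap, with log2 differences of 2.29 ± 0.44 at 60 against 12 days (limma, adjusted p = 0.00311, or 0.08 without replicate 2) and 3.75 ± 0.44 at 60 against 5 days (adjusted p = 6.57e-05), and at 12 against 5 days 1.46 with an adjusted p of 0.0563, or 0.0488 with the replicate number as a block. Mice that lack Clcn2 are known to lose their germ cells. Clcn3 read -2.17, -1.16 and -1.44 at 5 days, 0.78, 0.49 and 0.65 at 12 days and 0.92, 1.65 and 1.36 at 60 days. The 12-day and 60-day arrays lay above all 5-day arrays, with a log2 difference of 2.24 ± 0.36 at 12 against 5 days (limma, adjusted p = 0.00223), 2.90 ± 0.36 at 60 against 5 days (adjusted p = 9.41e-05) and 0.67 at 60 against 12 days (adjusted p = 0.212). Under spike-in scaling the first of these was 0.90 (adjusted p = 0.351) and the last 1.57 (adjusted p = 0.186), and neither was called.

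Clcn5, the endosomal exchanger of the kidney tubule, read -0.84, -0.99 and -0.83 at 5 days, -1.49, -1.76 and -1.19 at 12 days and -2.64, -3.09 and -3.50 at 60 days. It was lower at 60 days than at either younger age on every array, by -1.60 ± 0.33 against 12 days (limma, adjusted p = 0.00489, or up to 0.0875 without replicate 2 or 3) and -2.19 ± 0.33 against 5 days (adjusted p = 0.000384). Clcn7 was above background on 1 array at 5 days, 1 at 12 days and 2 at 60 days and was not called (adjusted p of 0.934 or more). Cftr, the cyclic AMP-gated chloride channel, was above background on no array.

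Promoter sequences were compared for the cyclic AMP response element, the site through which FSH signalling is known to act on many Sertoli cell genes. The RefSeq promoters of the GRCr8 build run from 250 bases before to 50 after each start site, and 53 of the 80 tested channel genes had one, with 63 promoters in all. The full element TGACGTCA, searched on both strands, was found in that of Clcn3 alone among them (1.59%), against 1.83% of all 33469 promoters. Its first base lies 63 bases before the start site, in capitals in the promoter at chr16:34137754-34138053 on the plus strand. The shorter form TGACG, part of the full element, stands in 25.4% of these 63 promoters and in 21.2% of all promoters. Over all channel genes, tested or not, it stands in 21.5% of 135 promoters. The promoter of Kcne1 at chr11:45076984-45077283 on the minus strand holds it 231 bases before the start site, in capitals. No channel promoter held the CArG box, the serum response element core of smooth muscle genes, which 1.64% of all promoters hold. These matches are letters in a window and no site was measured, and the promoters printed are those of the only 2 of the 6 genes higher at 12 than at 5 days that hold TGACG.
Clcn3 promoter: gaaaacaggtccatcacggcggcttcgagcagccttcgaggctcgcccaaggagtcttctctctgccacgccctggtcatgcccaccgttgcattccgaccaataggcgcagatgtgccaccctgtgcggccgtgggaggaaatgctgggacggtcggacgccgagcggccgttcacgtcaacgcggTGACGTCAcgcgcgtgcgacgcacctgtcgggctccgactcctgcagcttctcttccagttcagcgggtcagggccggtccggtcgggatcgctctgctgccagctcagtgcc
Kcne1 promoter: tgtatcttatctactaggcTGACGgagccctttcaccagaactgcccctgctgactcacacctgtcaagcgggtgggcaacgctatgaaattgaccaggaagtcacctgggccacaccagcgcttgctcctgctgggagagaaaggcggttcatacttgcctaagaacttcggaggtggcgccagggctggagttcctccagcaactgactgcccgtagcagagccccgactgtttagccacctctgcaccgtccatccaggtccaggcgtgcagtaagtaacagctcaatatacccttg

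TRP channels conduct calcium and other cations and open on heat, stretch, lipids or emptied stores. Of 21 genes 11 were tested, and at 60 against 5 days 3 rose and 2 fell. Trpv2 had its lowest levels at 12 days: it read -3.32, -3.19 and -3.24 at 5 days, -5.80, -5.10 and -5.54 at 12 days, where it was above background on no array, and -0.32, 0.20 and -0.36 at 60 days. The 3 ages stood apart. It was at least 1.71-fold lower at 12 than at 5 days (limma, adjusted p = 0.00123), at least 14.5-fold higher at 60 than at 12 days (adjusted p = 3.93e-06), and higher by 3.09 ± 0.32 on the log2 scale at 60 than at 5 days (adjusted p = 2.9e-05). Under normexp the difference at 12 against 5 days was -0.19 (adjusted p = 0.572). Trpm6, a magnesium channel fused to a kinase, was above background at 60 days only, at -1.97, -1.87 and -2.27. That made it at least 3.96-fold higher at 60 than at 12 days (limma, adjusted p = 0.000297) and at least 3.94-fold higher than at 5 days (adjusted p = 0.000326). Trpm7, its ubiquitous relative, lay between -1.89 and -0.52 on all arrays and was not called (adjusted p of 0.113 or more).

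Trpc4, a calcium channel opened by receptors that act through phospholipase C, read -6.27, -5.69 and -6.25 at 5 days, -3.03, -3.49 and -2.05 at 12 days and -3.91, -3.83 and -4.18 at 60 days. The 12-day arrays were the highest and the 5-day arrays, none above background, the lowest. It was at least 2.23-fold higher at 12 than at 5 days (limma, adjusted p = 0.000534) and at least 1.03-fold higher at 60 than at 5 days (adjusted p = 0.00194). Trpv4, a channel opened by swelling and warmth, read -1.13, -0.78 and 0.77 at 5 days, -1.05, -2.15 and -0.99 at 12 days and -2.80, -3.35 and -2.82 at 60 days. Only the 60-day arrays stood apart, by -2.61 ± 0.52 against 5 days (limma, adjusted p = 0.00235) and -1.59 ± 0.52 against 12 days (adjusted p = 0.0448). The call against 12 days was lost without array 1 or 3 of 12 days, array 2 of 5 days or any array of 60 days (up to 0.162). Trpc1 lay between -0.29 and 1.46 and was not called (adjusted p of 0.104 or more), and Trpc2, the sperm and vomeronasal channel of rodents, was above background on 1 array.

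P2X receptors are cation channels opened by ATP outside the cell. Of 7 genes 2 were tested. P2rx2 rose at 60 against 5 days (limma, adjusted p = 0.00982, or up to 0.117 without replicate 2 or 3), at levels of -5.27, -3.68 and -3.48 at 60 days, against -5.97, -6.28 and -6.01 at 5 days where it was above background on no array, and its bound is under 1. P2rx4 read -0.59, 0.23 and -1.0 at 60 days, -1.57, -0.61 and -2.98 at 12 days and was not called at 60 against 12 days (adjusted p = 0.125, or 0.0253 with the replicate number as a block). P2rx1 and P2rx7 were above background on no array.

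Markers of other testis cells also changed with age, in different directions. Of 10 markers of peritubular myoid cells and fibroblasts tested, 8 fell and none rose at 60 against 5 days and 7 fell and none rose at 60 against 12 days, and all 10 were above background on at least 1 array of each age. Their summed level was 8.99 to 9.77 at 5 days, 7.81 to 8.23 at 12 days and 5.04 to 7.39 at 60 days. The markers of rete testis and duct epithelium summed to 5.72 to 6.65 at 5 days and 3.77 to 3.94 at 12 days. Of 8 of these tested, 3 rose and 2 fell at 60 against 12 days. Within the 60-day arrays replicate 1 had the highest sum of peritubular cell and fibroblast markers, 7.39, against 6.14 and 5.04. The rete testis and duct markers summed to 5.55 there, against 3.22 and 3.22. Of the 24 channel genes that fell at 60 against 5 days, 18 (75%) were highest on that array among the 60-day arrays, against 48% of the 4072 genes that fell. Without that array all 24 channel genes were still lower at 60 than at 5 days and 18 of 19 lower at 60 than at 12 days (limma). For the 18 of the 24 genes that were highest on it, leaving that array out lowers the 60-day mean, so this refit favours their calls.

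Of 13 spermatocyte markers all rose at 60 against 5 days, and of 12 spermatid markers 11 rose. The spermatocyte markers summed to 0.43 to 0.95 at 5 days, 2.77 to 2.92 at 12 days and 6.46 to 7.42 at 60 days, and the spermatid markers to 2.02 to 2.67, 2.25 to 2.72 and 4.83 to 5.61. At 5 days 11 of the spermatocyte markers, Sycp1, Sycp3 and Ldhc among them, were above background on no array. Of the 12 spermatid markers, 8 were above background on no array of 5 days and 6 on no array of 12 days. The Sertoli cell markers summed to 5.73 to 5.96 at 5 days, 7.93 to 8.14 at 12 days and 8.41 to 8.62 at 60 days. Macrophage markers summed to 2.58 to 3.30 at 5 days, 1.11 to 1.29 at 12 days and 1.60 to 1.73 at 60 days, endothelial markers to 2.46 to 3.15, 3.09 to 3.90 and -0.07 to 1.42, and Leydig cell markers to 4.22 to 4.97, 2.47 to 3.23 and 3.51 to 3.95. The part of these cells in the channel results was not tested.

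**Figure D4:**
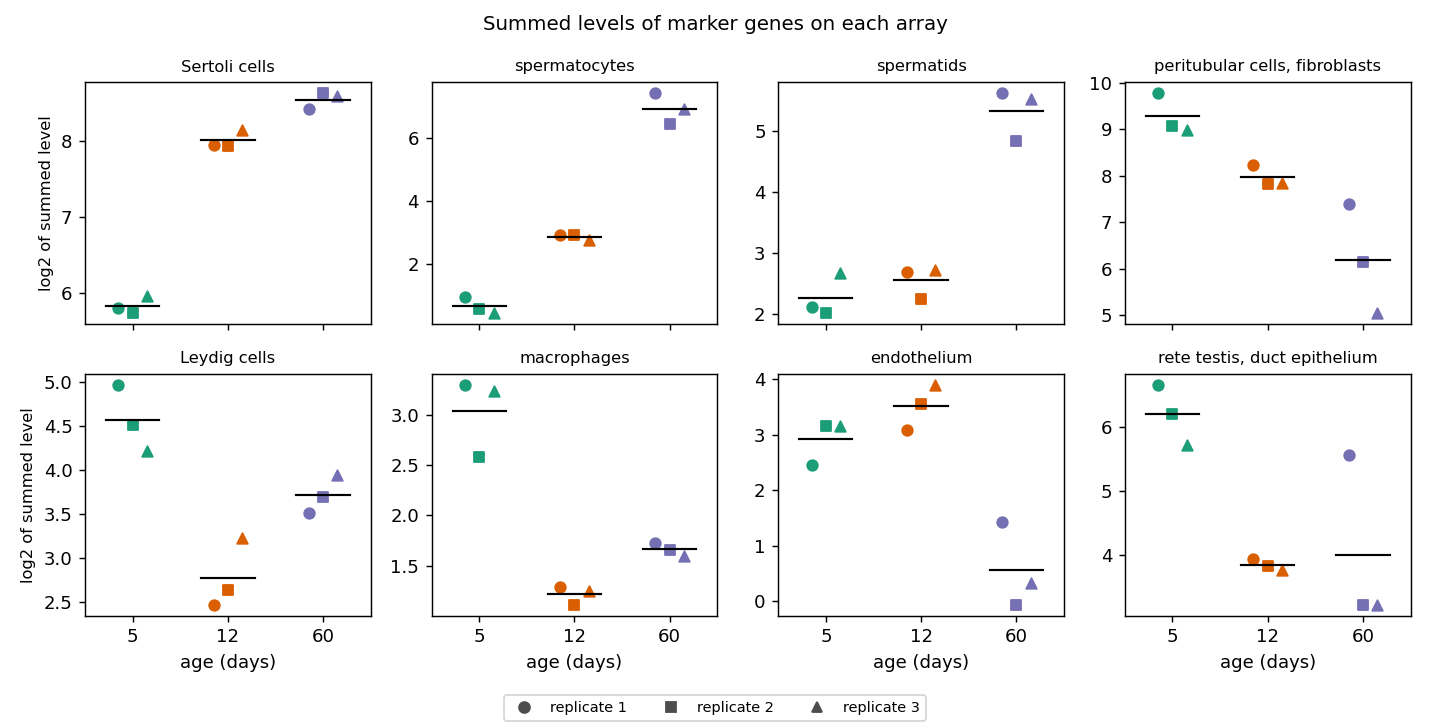
Log2 of the summed level of 8 marker lists on each array (y axis) by age in days (x axis); marker shape is the replicate number and bars are means of 3 arrays. The sums of peritubular cell and fibroblast markers fall from left to right with array 1 of 60 days the highest of its age, and the sums of Sertoli cell, spermatocyte and spermatid markers are highest at 60 days.

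The genes that work beside these channels changed in both directions. Of 14 sodium and potassium pump genes tested, 3 were higher and 4 lower at 60 against 5 days. The gene list of calcium stores, pumps and exchangers had 3 higher and 2 lower of 19, that of chloride and cation cotransporters and exchangers 4 higher and 1 lower of 11, that of other ion channels 6 higher and 3 lower of 27, and that of channel regulators and scaffolds 10 higher and 7 lower of 27. Their median log2 differences at 60 against 5 days, in the same order, were -0.3, 0.41, 0.97, 0.78 and 0.25, against -0.09 over all genes, of which 17.2% were higher and 18.1% lower.

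Among the genes of these lists that fell were a pump regulator, a leak channel and 2 GTPases. Fxyd1, which tunes the sodium pump of heart and muscle, averaged -4.71 ± 1.52 at 60 days and 1.73 ± 0.72 at 5 days (SD, n = 3 each), a log2 difference of -6.44 ± 0.71 (limma, adjusted p = 4.31e-05). Nalcn, the sodium leak channel, averaged -0.18 ± 0.06 at 5 days, 0.16 ± 0.31 at 12 days and -5.50 ± 1.38 at 60 days (SD, n = 3 each), with a log2 difference of -5.66 ± 0.57 at 60 against 12 days (limma, adjusted p = 5.45e-05). Rem1 and Gem, small GTPases that bind calcium channel beta subunits, differed by -4.83 ± 0.50 and -3.47 ± 0.64 on the log2 scale at 60 against 5 days (limma, adjusted p = 2.65e-05 and 0.00141). At 60 days Fxyd1, Nalcn and Rem1 were each above background on 1 array, and Gem on 2. The sizes of these 60-day differences thus rest in part on signals below background.

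Others rose, and Orai2 fell. Ano1, a calcium-activated chloride channel, was above background at 60 days only and was at least 15.6-fold higher there than at 5 days (limma, adjusted p = 1.58e-05). Stim1, the sensor that opens calcium entry when stores empty, averaged 4.57 ± 0.25 at 60 days and 2.27 ± 0.30 at 5 days (SD, n = 3 each), a log2 difference of 2.30 ± 0.34 (limma, adjusted p = 0.00033), while Orai2, one of the pores it opens, differed by -3.14 ± 0.41 (adjusted p = 0.000142). Atp1b1, the beta1 subunit of the sodium pump, was higher by 3.11 ± 0.39 (limma, adjusted p = 9.83e-05), and Wnk4, a kinase that regulates chloride cotransporters, by 3.46 ± 0.40 (adjusted p = 5.71e-05). Slc9a2, a sodium-proton exchanger, was above background on all arrays of 5 and 60 days and on none of 12 days, at least 5.31-fold higher at 60 than at 12 days (limma, adjusted p = 1.29e-05) and at least 1.52-fold lower at 12 than at 5 days (adjusted p = 0.000961). Catsper2, a pore of the sperm calcium channel, was higher by 3.89 ± 0.36 on the log2 scale at 60 than at 5 days (limma, adjusted p = 1.22e-05). These calls of related genes at 60 against 5 days stood in the 12 refits.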

How the data were processed

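For each of 9 arrays, total RNA of cultured Sertoli cells was labelled with Cy3 from 500 ng and hybridised to a 4x44k rat array, per the labels. Feature Extraction 9.5.3.1 (replicate 1) and 10.5.1.1 (replicates 2 and 3) gave the deposited processed intensity, background-subtracted within the array and not scaled between arrays, per the file headers. The deposited series table holds log2 values, equal to the log2 processed intensity minus 1 constant per array within 0.01 for 99.7% to 99.8% of probes.

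Of 41012 probes, 254 with a quality failure were left out (1 of the 223 channel probes). Each array's 75th percentile was subtracted from its log2 processed intensities, 26599 probes passed the filter, and the brightest probe stood for each of 22456 genes. limma 3.58.1 (R 4.3.3) fitted a mean per age over the 9 arrays, with p-values adjusted over all genes; residual degrees of freedom were 6 and prior ones 4.659. The fit was also run on simulated data with independent errors. These had no slide effect and no signal floor, so that run does not cover either. Below background in the lower age, folds are bounds from the lowest signal well above background. Same replicate numbers deviated together (correlations of 0.181 to 0.601, against 0.0939 or less between numbers), and numbers mark the slide, so they pair the arrays.

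The channel genes and the gene lists were chosen with earlier results of these data known. Named were per comparison the 12 largest called rises, the 12 largest called falls and the 3 largest bounds each way, the 12 brightest channel genes and a list of channels studied in testis, and of each related list up to 3 genes; a few genes that fall under this rule are not reported here by name, although they are in the counts. Alternatives were other scalings, the deposited table, normexp background correction (offset 50), other filters and probes, the slide as a block and arrays left out. Plots and tables used Python 3.11.15, pandas 2.3.3, numpy 2.4.6 and matplotlib 3.10.9.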

Additional observations from a re-analysis of the deposited data

How the results depend on the processing

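Counts of channel genes called at 12 against 5 days were 6 higher and 9 lower. Scaling to the spike-in controls gave 0 and 24, normexp on replicates 1 and 3 gave 2 and 1, and probes above background on all arrays gave 2 lower. With the replicate block 12 were higher, and Kcnh2, Scn2a, Kcnd1 and Cacna1s joined those lower. Leaving out an array or a replicate number gave 4 to 8 higher and 3 to 10 lower.

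At 60 against 12 days, 8 were higher and 19 lower. Spike-in scaling left 5 lower, normexp gave 2 and 3, and probes above background on all arrays gave 2 and 7. With the replicate block 13 were higher, and Kcnd3 joined those lower. Leaving out an array or a number gave 6 to 10 higher and 8 to 19 lower. At 60 against 5 days, 16 were higher and 24 lower. Spike-in scaling left 9 higher, normexp gave 6 and 10, and probes above background on all arrays gave 5 and 9. Leaving out an array or a number gave 11 to 18 higher and 22 to 25 lower. The replicate block added Kcnj3 to those higher and Kcnd3, Kcna3 and Clcn4 to those lower.

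Normexp used 6 arrays, since the files of replicate 2 hold no mean signal, and the all-array filter kept 33 channel genes; other causes were not tested. Normexp kept the sign of all 15, 27 and 40 calls but the calls of 3, 5 and 16. Of the named genes' differences under any alternative run, no called one turned round. Of 147 differences of genes under the naming rule, normexp ended 53 calls and spike-in scaling ended 24 and added 10. The deposited table and median scaling changed none of these calls, and testing every probe added Kcnk6 at 12 against 5 days (-1.33) and Scn4b at 60 against 12 days (1.35). Precision is limited by 3 arrays per age and by signals near background, since 21 tested genes passed through 1 age only.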
